A study of Rattus norvegicus with 11 samples.

Results

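A list of 9 genes often read together as signs of tissue repair in macrophages was examined in peripheral white blood cells (WBCs) of rats, namely Thbs1, Hmox1, Eng, Tgm2, Vegfa, Arg1, Mrc1, Cd163 and Cd36. They were found by their symbols in an expression table of 32623 genes, which held 8 of the 9. Thbs1, Hmox1 and other genes of the list were selected on their difference between the Nampt+ and Nampt++ samples described here, so that difference is given as a description and not as a test.

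The samples were WBCs left after lysis of red blood cells in the blood of male Wistar rats, which the study's methods give as 7 weeks old. In 4 rats, collagen-induced arthritis (CIA) had been raised with collagen type II in incomplete Freund's adjuvant (IFA-CII) and boosted on day 7, and each of these rats gave a Nampt++ sample near day 8 and a Nampt+ sample near day 14, with a spread of about 2 days. Nampt makes the NAD precursor nicotinamide mononucleotide, and the authors sorted samples into the high (Nampt++) and lower (Nampt+) status by their own PCR of this gene. The 3 controls were healthy rats of the same strain with no induction of CIA, and the comparison asks how blood leukocytes differ between stages of early CIA. As both statuses come from the same rats at different days, status, day and time since the boost cannot be told apart, and 1 of the deposited protocols speaks of retinas where the other labels say leukocytes.

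Macrophages and monocytes that clear damaged tissue take up dead cells and haemoglobin, break down haem, arrange new matrix and call in blood vessels, and the 9 genes cover these steps. Thbs1 encodes thrombospondin-1, a matrix glycoprotein that platelets and monocytes release, that binds CD47 and CD36 and that activates latent TGF-beta. Eng encodes endoglin, a co-receptor for ligands of the TGF-beta family. Hmox1 encodes haem oxygenase 1, which splits haem into biliverdin, iron and carbon monoxide, and Cd163 encodes the scavenger receptor for haemoglobin bound to haptoglobin. Tgm2 encodes a transglutaminase that crosslinks proteins, Vegfa the main growth factor of blood vessels, Arg1 the arginase that turns arginine into ornithine, Mrc1 the mannose receptor and Cd36 a scavenger receptor for oxidized lipids. Arg1, Mrc1, Cd163 and Tgm2 are common markers of alternatively activated macrophages.

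The study's PCR primers are shown for 3 of the genes, because they mark the transcripts whose levels the results turn on. Arg1 was also measured by PCR in the study, and its primers are not shown here. Each primer pair is given 5′ to 3′, forward first, and no letters are capitalised because none was singled out.
Thbs1 forward: gatcccaaaggaacctccca
Thbs1 reverse: ccagcatagtcgtcatccct
Hmox1 forward: cttacacaccagccacacag
Hmox1 reverse: ccagcagctcaggatgagta
Tgm2 forward: ttccggctgacactgtactt
Tgm2 reverse: caggatccctcctccacatc
Thbs1 and Eng were the pair with the highest correlation over the samples, and the 250 bases before their start sites are shown as RefSeq gives them for the rat assembly GRCr8. The Thbs1 stretch lies at chr3:125510000-125510249 and the Eng stretch at chr3:36332029-36332278, both on the plus strand.
Thbs1 promoter: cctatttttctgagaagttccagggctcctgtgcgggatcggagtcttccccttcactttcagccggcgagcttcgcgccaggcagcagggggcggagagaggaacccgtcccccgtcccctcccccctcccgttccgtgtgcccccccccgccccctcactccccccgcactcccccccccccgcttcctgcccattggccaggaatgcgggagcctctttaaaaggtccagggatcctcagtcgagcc
Eng promoter: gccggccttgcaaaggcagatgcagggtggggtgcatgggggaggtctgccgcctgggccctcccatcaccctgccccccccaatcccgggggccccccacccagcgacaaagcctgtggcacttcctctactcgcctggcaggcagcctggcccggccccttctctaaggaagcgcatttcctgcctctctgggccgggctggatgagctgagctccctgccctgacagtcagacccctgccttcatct
The GC content of these stretches was 67.6% for Thbs1 and 68% for Eng. The letters TGACTCA (AP-1), TGACGTCA (CRE), TGACNNNGC (antioxidant response element), ACGTG (hypoxia response) and CACGTG (E-box, which also holds ACGTG) were searched on both strands from 250 bases before to 50 after the start. Promoters of 6 listed genes were matched, and that of Cd36 alone held a motif, ACGTG. Those of Thbs1 and Eng held none of them, against 4.63%, 1.83%, 12.1%, 19.3% and 6.42% of all 33469 rat promoters in the same table. For Hmox1, Tgm2 and Arg1 no promoter entry was matched.

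Total counts per sample ranged from 65340027 to 85819418, and haemoglobin transcripts took between 6.84% and 42.8% of them. Of the 11 monocyte genes found, 10 averaged at least 1 FPKM, with Lyz2 (lysozyme) between 3978 and 13490 FPKM and Csf1r (the receptor for macrophage colony-stimulating factor) between 15.9 and 88.5 FPKM, while Ms4a7 did not exceed 0.183 FPKM. The 9 endothelial genes together were between 11.4 and 22.1 FPKM, of which Vwf, also a platelet gene, gave 7.67 to 15.1 FPKM and Cdh5 at most 0.0943 FPKM. The 6 fibroblast genes together did not exceed 5.76 FPKM. FPKM is the number of sequenced fragments of a gene scaled by the length of its transcript and the total of the sample, and it is used here for levels. In whole leukocytes, fewer cells of a type and less RNA per cell cannot be told apart.

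Thbs1 had the highest mean FPKM over the 11 samples of the 8 genes found, although Vegfa was higher on average in the Nampt+ samples. The gene (ENSRNOG00000045829) was deposited at chromosome 3, 109862117 to 109873466, on the plus strand, in a genome build that is not stated. In the Nampt++ samples of rats 1 to 4 it was at 20.3, 21.3, 62.4 and 65.7 FPKM. In the Nampt+ samples of the same rats it was at 16.1, 7.58, 14.2 and 20.6 FPKM. The controls were at 7.73, 88.2 and 11.9 FPKM. Control 2 was thus the highest of the 11 samples and control 1 one of the lowest, and all 3 groups overlapped. The group means were 42.4 ± 25.0 FPKM at Nampt++ (SD, n = 4), 14.6 ± 5.39 at Nampt+ (n = 4) and 36.0 ± 45.3 in controls (n = 3). Without control 2 the controls averaged 9.84 FPKM.

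Within rats, the FPKM of Thbs1 was lower at Nampt+ than at Nampt++ in 4 of 4 rats. The ratio of Nampt++ to Nampt+ was 1.26, 2.81, 4.39 and 3.19 in rats 1 to 4. On the log2(FPKM + 1) scale, the mean difference, Nampt+ minus Nampt++, was -1.35 ± 0.74 (SD, n = 4). Rat 1 differed least, and rats 3 and 4, whose Nampt++ samples were the highest, differed by larger amounts than rat 1. The sample totals behind FPKM include haemoglobin transcripts, which in rat 1 took 6.84% at Nampt++ and 25.9% at Nampt+. In rats 2 to 4 they took 37.3%, 20.2% and 7.795% at Nampt++ and 42.8%, 18.4% and 14.8% at Nampt+. How far the ratio of 1.26 in rat 1 depends on this share was not tested.

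Eng, the TGF-beta co-receptor, stood at a far lower level. It was deposited as ENSRNOG00000050190 at chromosome 3, 11679530 to 11717485, on the plus strand. The Nampt++ samples were at 2.05, 1.01, 2.44 and 5.55 FPKM, the Nampt+ samples at 1.18, 0.777, 1.01 and 1.20 FPKM and the controls at 0.528, 3.96 and 1.01 FPKM. It was lower at Nampt+ in 4 of 4 rats, by ratios of 1.74, 1.298, 2.42 and 4.62 of Nampt++ to Nampt+, and the groups still overlapped. The within-rat difference was -0.75 ± 0.60 on the log2(FPKM + 1) scale (SD, n = 4), a scale that understates changes of genes near 1 FPKM.

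**Figure D1:**
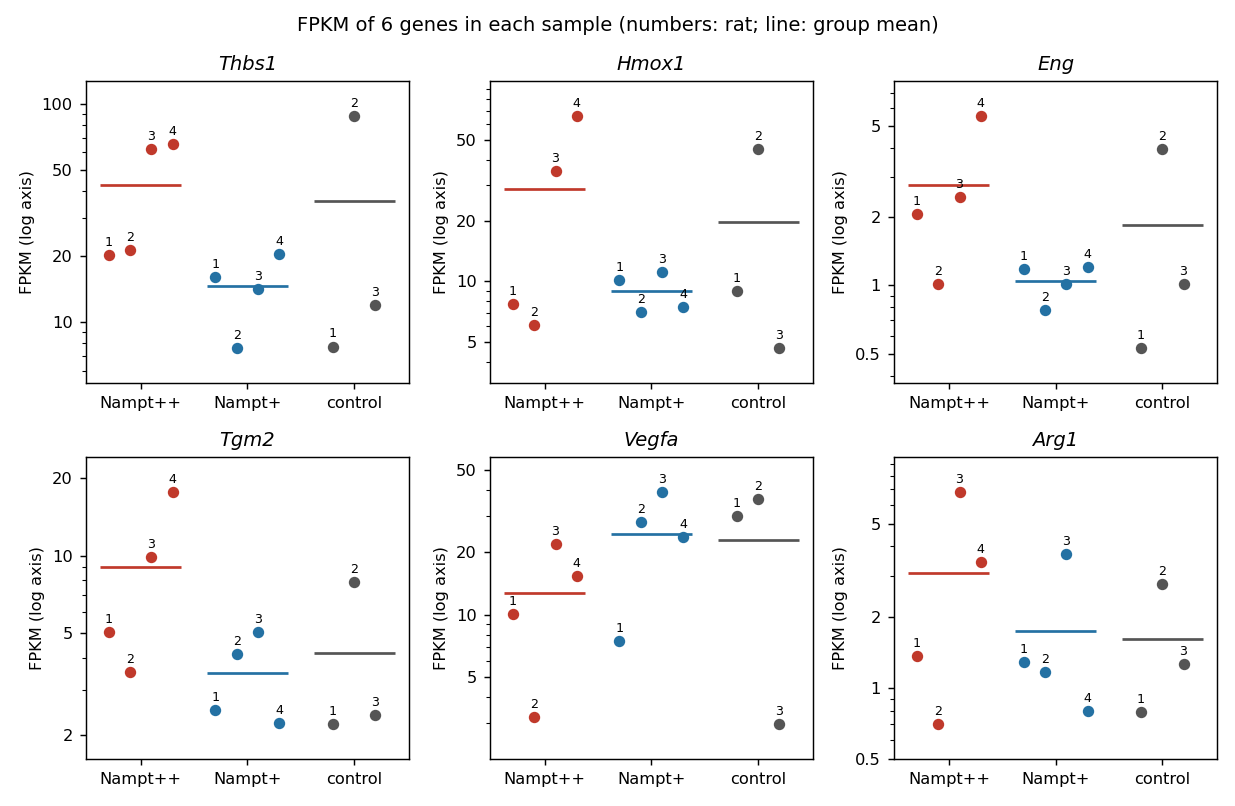
FPKM of 6 genes in each sample on log axes, with Nampt++ in red, Nampt+ in blue, controls in grey, the rat number at each point and a line at the group mean. Thbs1, Hmox1, Eng and Tgm2 were highest in the Nampt++ samples of rats 3 and 4 and in control 2, while Vegfa was spread over all 3 groups.

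Of the haem genes, Hmox1 varied widely and Cd163 was not detected. Hmox1 (ENSRNOG00000014117, chromosome 19, 14508616 to 14515456, plus strand) was at 7.77, 6.08, 35.1 and 66.1 FPKM in the Nampt++ samples of rats 1 to 4. The Nampt+ samples were at 10.2, 7.03, 11.2 and 7.44 FPKM and the controls at 8.97, 45.3 and 4.66 FPKM. The Nampt++ samples of rats 3 and 4 and control 2 were the highest, and the other 8 samples lay between 4.66 and 11.2 FPKM. The group means were 28.8 ± 28.2 FPKM at Nampt++ (SD, n = 4), 8.95 ± 2.03 at Nampt+ (n = 4) and 19.6 ± 22.3 in controls (n = 3, and 6.82 without control 2). Within rats the sign was split, since Hmox1 was 3.14-fold and 8.88-fold higher at Nampt++ in rats 3 and 4, but 1.31-fold and 1.16-fold higher at Nampt+ in rats 1 and 2. The mean within-rat difference on the log2(FPKM + 1) scale was -1.01 ± 1.58 (SD, n = 4), with an SD larger than the mean.

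The haemoglobin scavenger receptor Cd163 (ENSRNOG00000010253, chromosome 4, 156752082 to 156785467, plus strand) had 0 counts in all 11 samples. A count of 0 allows up to 3 counts per sample, which is between 0.0350 and 0.0459 CPM (counts scaled to a common sample total) at these depths, and this limit covers counting error only. Whether the deposited gene model covers the transcript in use was not tested. Cd36 was not found under its symbol. A row annotated as similar to fatty acid translocase (RGD1565355) was between 1.82 and 8.09 FPKM over the 11 samples and was not taken as Cd36.

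The markers of alternative activation Tgm2 and Arg1 were highest in Nampt++ samples, of rat 4 and rat 3. Tgm2 (ENSRNOG00000012956, chromosome 3, 154597168 to 154627257, minus strand) was at 5.01, 3.499, 9.85 and 17.8 FPKM in the Nampt++ samples, at 2.502, 4.14, 5.04 and 2.23 FPKM in the Nampt+ samples and at 2.20, 7.88 and 2.40 FPKM in controls. It was lower at Nampt+ in 3 of 4 rats, by 2.00-fold, 1.96-fold and 7.97-fold in rats 1, 3 and 4, and 1.18-fold higher in rat 2. The mean within-rat difference was -0.99 ± 1.13 (SD, n = 4, log2 of FPKM + 1).

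Arg1 (ENSRNOG00000013304, chromosome 1, 21525421 to 21537863, plus strand) was at 1.37, 0.701, 6.84 and 3.44 FPKM in the Nampt++ samples, at 1.28, 1.16, 3.72 and 0.793 FPKM in the Nampt+ samples and at 0.791, 2.77 and 1.26 FPKM in controls. Both samples of rat 3 were the highest of all 11, but its Nampt+ sample, at 3.72 FPKM, was close to the Nampt++ sample of rat 4, at 3.44 FPKM. The within-rat difference was -0.44 ± 0.73 (SD, n = 4, log2 of FPKM + 1). Mrc1 (ENSRNOG00000018251, chromosome 17, 81352700 to 81433743, plus strand), the mannose receptor of tissue macrophages, stayed between 0.122 and 0.436 FPKM, or 48 to 172 counts per sample. Its within-rat difference of -0.01 ± 0.17 was smaller than its spread.

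Vegfa did not follow the other genes. It was deposited as ENSRNOG00000019598 at chromosome 9, 17340341 to 17355681, on the plus strand. The Nampt++ samples were at 10.1, 3.20, 22.0 and 15.4 FPKM, the Nampt+ samples at 7.47, 28.02, 39.4 and 23.6 FPKM and the controls at 30.0, 36.2 and 2.97 FPKM. Both the highest and the lowest levels thus occurred outside the Nampt++ group, with control 3 the lowest and rat 3 at Nampt+ the highest. Vegfa was higher at Nampt+ in 3 of 4 rats, by 8.76-fold, 1.79-fold and 1.54-fold in rats 2, 3 and 4, and 1.35-fold lower in rat 1. The mean within-rat difference was 0.95 ± 1.33 (SD, n = 4, log2 of FPKM + 1), most of it from rat 2.

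**Figure D2:**
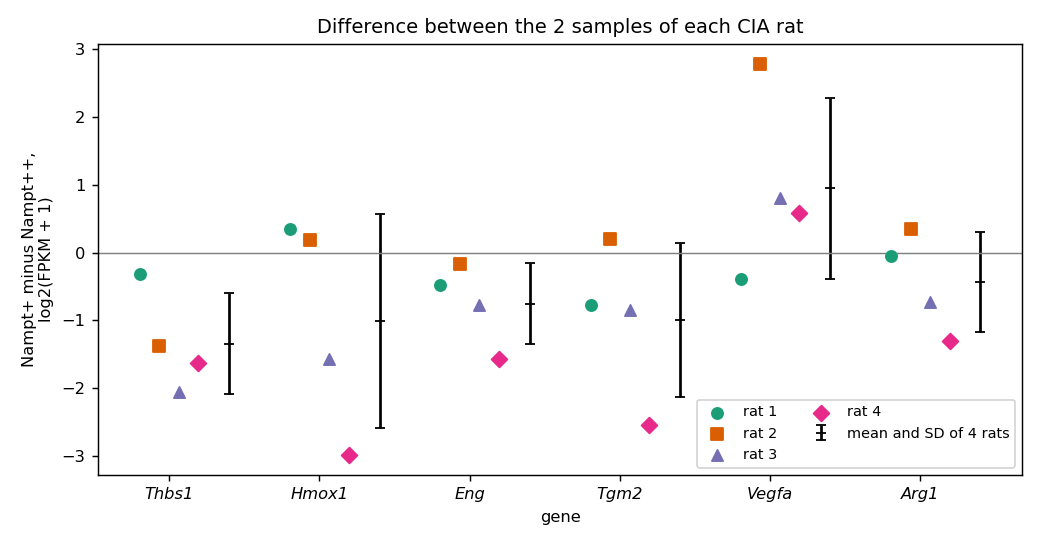
Difference between the Nampt+ and the Nampt++ sample of each CIA rat on the log2(FPKM + 1) scale, with 1 symbol per rat and, beside it, the mean and SD of the 4 rats. All 4 rats lie below 0 for Thbs1 and Eng, 2 of 4 for Hmox1, and Vegfa has 3 rats above 0. Haemoglobin transcripts are part of the sample totals behind these values.

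Over the whole table, 0.642% of the 11219 genes that averaged at least 1 FPKM passed the study's thresholds between Nampt+ and Nampt++ samples. These require more than a 2-fold change of the mean FPKM either way and an unadjusted p below 0.05, here from edgeR's quasi-likelihood test. Of the 6 listed genes that entered this fit, 3 were past them. As these genes were chosen on this contrast, nothing is read from that count. The fitted log2 fold changes, Nampt+ against Nampt++, were -1.49 (SE 0.39) for Thbs1, -1.50 (SE 0.66) for Hmox1 and -1.24 (SE 0.41) for Eng, and -1.11 (SE 0.54) for Tgm2, 1.16 (SE 0.64) for Vegfa and -0.77 (SE 0.71) for Arg1. With the rat as a replicate block, 1 of the 6 was past the thresholds, beside 0.499% of all genes, Thbs1 at -1.31 (SE 0.38), and Hmox1 was at -0.94 (SE 0.77). With the controls in the same fit, none of the 6 was past them, beside 0.472% of all genes, and the SE of Thbs1 was 0.77. Leaving out single samples gave between 1 and 4 of the 6. Thbs1 was past the thresholds in each of these 8 fits, Eng in all but the one without the Nampt++ sample of rat 4, and Hmox1 only when rat 1 or rat 2 lost its Nampt++ sample.

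Against the controls, the 2 CIA groups gave unlike values for these genes, and both comparisons share samples with the contrast that chose them. At Nampt++ against control the log2 fold changes were -0.09 (SE 0.95) for Thbs1, 0.18 (SE 1.06) for Hmox1, 0.27 (SE 0.82) for Eng, 0.84 (SE 0.71) for Tgm2, -1.11 (SE 0.88) for Vegfa and 0.76 (SE 0.84) for Arg1. None of the 6 passed the thresholds, beside 0.686% of all 11219 genes tested. At Nampt+ against control, the fitted values were -1.60 (SE 0.86) for Thbs1, -1.34 (SE 0.80) for Hmox1, -0.99 (SE 0.72) for Eng and -0.28 (SE 0.69) for Tgm2. They were 0.04 for Vegfa and -0.03 for Arg1. Again 0 of 6 passed, beside 0.497% of 11269 genes. Without control 2, the Nampt++ values moved to 2.25 for Thbs1, 2.07 for Hmox1, 1.95 for Eng and 2.05 for Tgm2, with 3 of 6 past the thresholds beside 4.09% of 11303 genes. The Nampt+ values moved to 0.75 for Thbs1 and 0.56 for Hmox1, with 0 of 5 past them beside 1.20% of all genes, as Eng then averaged under 1 FPKM and was not tested. Without control 3, Vegfa passed at Nampt++ (-1.65, beside 1.27% of all genes), and Thbs1 (-2.07) and Hmox1 (-1.84) passed at Nampt+ (beside 1.00%). Without control 1, Thbs1 (-2.10) passed at Nampt+ (beside 0.587%), so the outcome turned on which control was left out.

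To compare CIA with health, the 2 samples of each rat were summed, giving 4 CIA rats and 3 controls. The sum does not use the difference between the statuses, but it is made of the same samples, so these tests are not independent of how the genes were chosen. The rat means were 28.5 ± 14.3 FPKM for Thbs1, 18.9 ± 14.01 for Hmox1, 1.901 ± 1.05 for Eng, 6.25 ± 3.03 for Tgm2, 18.7 ± 9.16 for Vegfa and 2.41 ± 1.97 for Arg1 (SD, n = 4 each). None of the 6 tested genes was called, beside 0.613% of 11255 genes. In edgeR's quasi-likelihood test the log2 fold changes, CIA rats against controls, were -0.68 (SE 0.88) for Thbs1, -0.46 (SE 0.88) for Hmox1, -0.27 (SE 0.73) for Eng, 0.32 (SE 0.60) for Tgm2, -0.54 (SE 0.80) for Vegfa and 0.35 (SE 0.69) for Arg1, each with a Benjamini-Hochberg adjusted p of 0.9998 over all genes. Over all genes, none had an adjusted p under 0.05 in edgeR, while 190 had an unadjusted p under 0.05, and 6 genes had an adjusted p under 0.05 in DESeq2 and 10 or 3 in limma at a pseudocount of 1 or 0.1. In the two-sided exact permutation test of log2(FPKM + 1), Thbs1 differed by 0.13 (p = 0.943), Hmox1 by 0.01 (p = 1), Eng by 0.09 (p = 0.886), Tgm2 by 0.41 (p = 0.4), Vegfa by -0.05 (p = 0.971) and Arg1 by 0.25 (p = 0.629), where the smallest p the design can give is 0.0286. At 2 standard errors these values leave room for changes of more than 2-fold either way for Thbs1, Hmox1, Eng, Vegfa and Arg1. Differences of that size were thus neither shown nor excluded.

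The calls in this comparison depended on control 2. When each rat or control was left out in turn, only the fit without control 2 called any of the 6 genes, and it called 3 of them, beside 4.09% of 11331 genes. In that fit Thbs1 was at 1.66 (SE 0.38, edgeR adjusted p = 0.178), Tgm2 at 1.53 (SE 0.36, adjusted p = 0.181) and Eng at 1.42 (SE 0.40, adjusted p = 0.236). Hmox1 at 1.44 (SE 0.67, adjusted p = 0.395), Arg1 at 1.35 (SE 0.67, adjusted p = 0.420) and Vegfa at 0.16 (SE 0.89, adjusted p = 0.953) were not called. Without CIA rat 3 Arg1 turned to -0.36, and without control 1 or control 3 Tgm2 turned to -0.01 and -0.06. The study's labels give no difference between control 2 and the other controls.

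**Figure D3:**
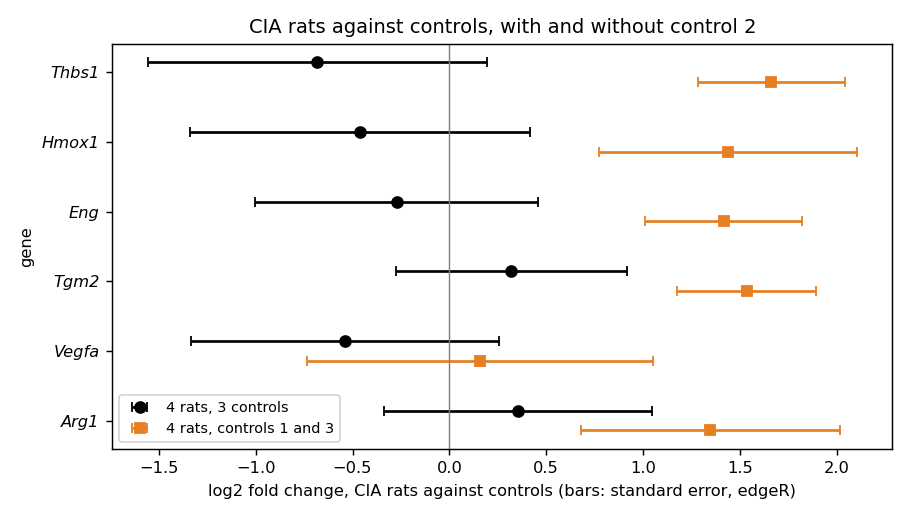
Fitted log2 fold change of 6 genes in CIA rats against controls, with the standard error as bars, from all 4 rats and 3 controls (black circles) and without control 2 (orange squares). With control 2 all 6 bars cross 0, and without it Thbs1, Eng and Tgm2 lie between 1.42 and 1.66.

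Thbs1, Hmox1, Eng and Tgm2 shared their highest samples. The same 3 samples, which were the Nampt++ samples of rats 3 and 4 and control 2, led in each of these genes, but not for Vegfa, Arg1 or Mrc1. The step from the third to the fourth sample was 2.93-fold for Thbs1 and 3.14-fold for Hmox1, yet 1.56-fold for Tgm2 and 1.19-fold for Eng, whose neighbours in the order are close. Over the table, 188 of 11242 genes (1.67%) had these samples as their top 3. The pattern was noticed after the values were seen, and the 3 samples are not a group of the study.

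Over the 11 samples, Thbs1 had a Pearson's r of 0.914 with Eng, 0.866 with Hmox1 and 0.790 with Tgm2 (log2 of FPKM + 1), and Hmox1 had an r of 0.888 with Tgm2 and 0.886 with Eng. By rank the values were lower, with a Spearman's rho of 0.882 for Thbs1 and Eng and 0.582 for Thbs1 and Hmox1. Vegfa had an r between 0.143 and 0.426 with the 5 others. Without the 2 samples farthest from the median of Thbs1, which were control 2 and the Nampt++ sample of rat 4, its r was 0.876 with Eng, 0.710 with Hmox1 and 0.670 with Tgm2 over 9 samples. The r of Hmox1 without the same samples was 0.761 with Tgm2 and 0.607 with Eng. These are descriptions over samples of which pairs come from the same rat.

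The genes most like Thbs1 among those that averaged 5 FPKM or more were Scarb1 (a receptor for high-density lipoprotein, r = 0.902), Cited2 (a transcriptional co-regulator that competes with HIF-1, r = 0.889), AABR07019083 (r = 0.880), Sephs2 (a selenophosphate synthetase, r = 0.871) and Rin2 (r = 0.869), against a median r of 0.06 over all such genes. Among those most like Hmox1 were Cebpa (a myeloid transcription factor, r = 0.964), Jarid2 (r = 0.918), LOC681325 (r = 0.916) and Id2 (r = 0.909).

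**Figure D4:**
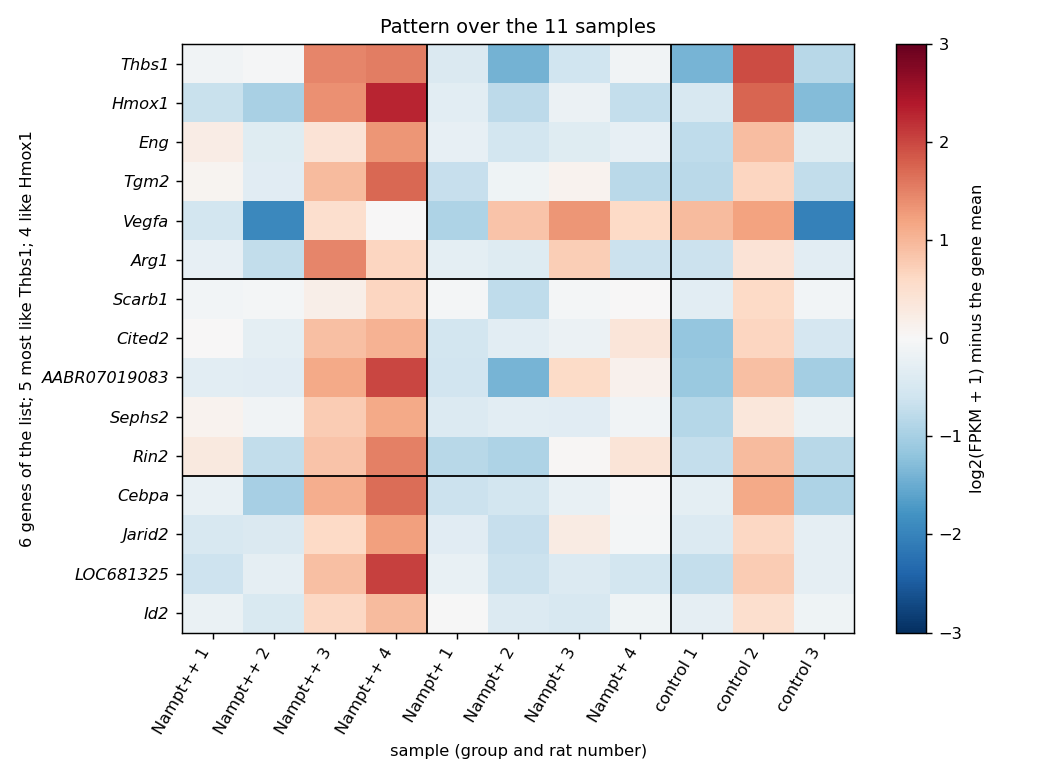
Level of each gene in each sample as log2(FPKM + 1) minus the gene's mean over the 11 samples, in red where above and blue where below it. The rows are 6 genes of the list, then the 5 genes most like Thbs1 and 4 of those most like Hmox1, and the Nampt++ samples of rats 3 and 4 and control 2 are red in most rows, with Vegfa apart.

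Genes of these pathways, with the genes examined here among them, were counted from lists. In CIA rats against controls, 0 of 18 tested genes of the thrombospondin and TGF-beta list, 0 of 24 of the haem, iron and Nrf2 list, 0 of 6 scavenger receptors, 0 of 20 of the alternative activation list, 0 of 15 of the hypoxia and VEGF list and 0 of 17 of the list of transglutaminases, matrix and arginine use were called in either direction. The median log2 fold changes of these lists were -0.03, -0.02, 0.23, 0.20, 0.03 and 0.14 in the same order, beside -0.02 over all genes. Without control 2, the lists had 2, 6, 1, 4, 2 and 7 genes called higher, and 2 genes of the last list called lower, beside 4.09% of all genes. Of all genes called in that fit either way, 80.6% were higher. The 2 genes of the first list were Thbs1 and Eng, and Tgm2 counted in both the alternative activation list and the last list. Neutrophil genes had 3 of 10 called higher in the same fit with a median of 1.51, monocyte genes 2 of 10 higher with a median of 0.53, and B cell and NK cell genes 1 each lower. The part of these cells in the list counts was not tested.

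The genes called in that fit are named here by list. Control 2 was among the highest samples for Thbs1, Hmox1, Eng and Tgm2, so leaving it out favours calls of genes with that pattern. Nothing is read from these calls about the pathways. Of the haem, iron and Nrf2 list they were Slc7a11 (the cystine transporter, log2 fold change 2.22), Txnrd1 (thioredoxin reductase, 1.49), Slc11a2 (an iron transporter, 1.38), Nqo1 (a quinone reductase, 1.23), Nfe2l2 (Nrf2 itself, 1.21) and Slc11a1 (a phagosomal metal transporter, 1.18). Of the matrix and arginine list, Slc7a2 (an arginine transporter, 3.73), Vcan (the proteoglycan versican, 2.44), Arg2 (the mitochondrial arginase, 2.32), Mmp9 (a gelatinase of neutrophils, 2.13) Fn1 (fibronectin, 1.43), Timp1 (an inhibitor of matrix proteases, 1.37) and Tgm2 itself were higher, and Sparc (-1.19) and Srm (spermidine synthase, -0.95) were lower. The genes of the hypoxia and VEGF list were Slc2a1 (the glucose transporter GLUT1, 1.64) and Egln1 (a prolyl hydroxylase that marks HIF for decay, 1.26). The scavenger receptor was Olr1 (1.47), and the genes of alternative activation included Il10 (1.31), Socs3 (1.16) and Tgm2. Their edgeR adjusted p values ranged upward from 0.0525 for Egln1, so none passed 0.05 after adjustment, and with control 2 kept none was called.

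Between Nampt+ and Nampt++ samples, the genes of these lists that passed the thresholds beside Thbs1, Eng and Hmox1 were Txnrd1, the scavenger receptor Msr1 and the transglutaminase Tgm1, all with lower means at Nampt+. Tgm1 was at 32.0 FPKM in the Nampt++ sample of rat 1 and at most 2.35 FPKM in the other Nampt++ samples, and without that sample its ratio of means, Nampt+ to Nampt++, went from 0.108 to 0.588. Txnrd1 lost its call when rat 4 lacked either of its samples or rat 1 lacked its Nampt+ one. Msr1 lost its call when rat 3 lacked either of its samples or rat 1 lacked its Nampt+ one, and was not tested, at a mean under 1 FPKM, when rat 4 lacked its Nampt++ one. With the controls in the same fit, Txnrd1 and Msr1 were not called. With the rat as a replicate block, Txnrd1 and Tgm1 were not. Msr1 was not called with limma at a pseudocount of 1. Tgm1 was not called with DESeq2, with limma at either pseudocount, or when rat 1, 3 or 4 lacked its Nampt+ sample. The median log2 fold change was below 0 for each of the 6 lists, between -0.50 for the matrix and arginine list and -0.12 for the haem list, beside -0.0002 over all genes. Some of the lists share genes and most hold genes chosen on this contrast, so the 6 medians are not separate observations. In the same contrast the median was -0.31 for monocyte, -0.41 for neutrophil and 0.76 for erythroid genes, none of which passed the thresholds, and their part in the lists' values was not tested.

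Markers of the cells that could carry these genes also varied between samples. Platelets hold thrombospondin-1, and the summed FPKM of 15 platelet genes ranged from 5866 to 11600 in Nampt++, from 2163 to 17630 in Nampt+ and from 4266 to 7985 in control samples, with its highest value in the Nampt+ sample of rat 1, where Thbs1 was at 16.1 FPKM. The top 3 samples of Thbs1 were the top 3 for 0 of 15 platelet genes, beside 1.67% of all genes. These samples were picked from the values of the listed genes, so nothing is read from counts of them. The 11 monocyte genes found summed to between 5889 and 12980 FPKM in Nampt++, 5673 and 13960 in Nampt+ and 4323 and 10810 in control samples, and 2 of the 10 that averaged at least 1 FPKM, the receptor Cd14 among them, had the same top 3 samples. Cd14 was at 141 FPKM in control 2 against 19.6 and 72.7 in the other controls, while Csf1r was at 42.1 FPKM there against 33.9 and 68.1. The 12 neutrophil genes summed to between 2898 and 40240, 3690 and 15590, and 2081 and 14070 FPKM in these groups, and the 14 immediate early genes, which are known to respond to handling of cells, to between 1696 and 6059, 2388 and 4289, and 1732 and 6103 FPKM. In CIA rats against controls, 1 of these 14 was called, beside 0.613% of all genes. It was Egr1, lower at -2.32 (SE 0.67, edgeR adjusted p = 0.9998). Controls 1 to 3 were at 561, 834 and 99.4 FPKM of Egr1, and the CIA samples between 56.5 and 161. Between Nampt+ and Nampt++, Fosb alone was called, higher at a ratio of means of 2.34, beside 0.642%. Fosb was not called with the controls in the same fit or without the Nampt++ sample of rat 1. Lyz2 makes up most of the monocyte sum. Without it, controls 1 to 3 were at 398.5, 553.7 and 345 FPKM, with control 2 the highest control for 5 of 9 genes. The Nampt++ samples of rats 1 to 4 were then at 398.7, 479.6, 559.4 and 935.4 FPKM. The Nampt+ samples were at 529.4, 287.1, 467.2 and 463.6 FPKM, so the top 3 samples of Thbs1 were also the top 3 of this sum. Control 2 had the highest sums of monocyte, neutrophil and immediate early genes among the controls and the lowest sum of T cell genes, at 463 FPKM against 1018 and 1118. The part of these cells and of handling in the levels of the listed genes was not tested.

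**Figure D5:**
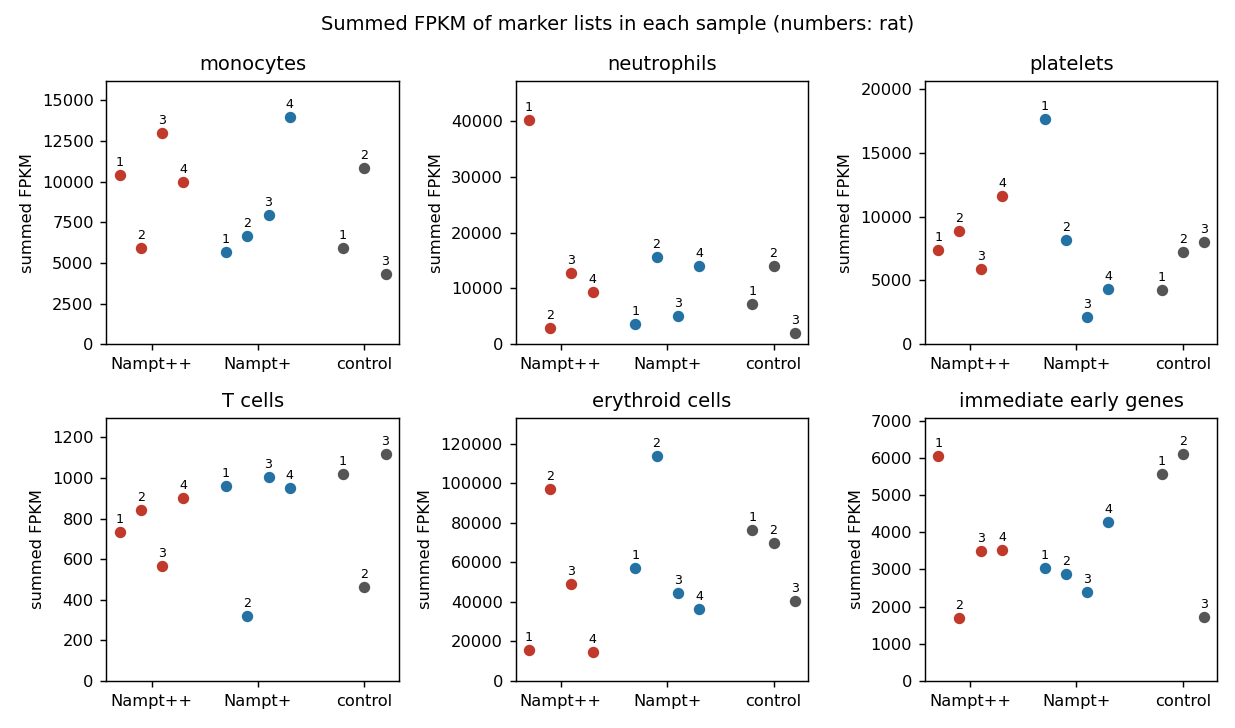
Summed FPKM of 6 marker lists in each sample, with Nampt++ in red, Nampt+ in blue, controls in grey and the rat number at each point. The groups overlap for all 6 lists, and control 2 is the highest control for monocyte, neutrophil and immediate early genes and the lowest for T cells.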

How the data were processed

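Poly(A) RNA of WBCs from 4 CIA rats, each at Nampt++ and at Nampt+ status, and from 3 healthy controls was sequenced in paired ends. The submitters' processing notes name cutadapt 1.9, HISAT2 2.0.4 and StringTie 1.3.4. The build, the counting program and the treatment of strand are not given in the sources used here. The authors deposited whole-number read counts per gene without normalization. The authors also deposited FPKM values, scaled by gene length and sample total, in which 0.0001 stands for 0 and was read as 0.

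The members and lists were chosen with earlier results of these data known. Counts were tested with edgeR 4.0.16 (quasi-likelihood test, TMM) in R 4.3.3 over genes that averaged 1 FPKM or more, with Benjamini-Hochberg adjustment. Calls required more than a 2-fold change of the mean FPKM either way and an unadjusted p below 0.05. For CIA rats against controls, the counts of both samples of a rat were summed. Single genes were compared by exact permutation of log2(FPKM + 1). Scripts were tested on simulated data. Named were the 9 members, for Thbs1 and Hmox1 the 5 genes of highest correlation among those that averaged 5 FPKM or more, and genes of the pathway lists called in CIA rats against controls. No gene of the pathway lists was, so those called without control 2 or between Nampt+ and Nampt++ were named after their values were seen. The marker genes Cd14, Lyz2, Csf1r, Ms4a7, Vwf, Cdh5, Egr1 and Fosb, and the monocyte sum without Lyz2, were also named after their values were seen. The values of 1 gene that this rule names are not reported here.

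Samples of both statuses that share a number are from the same rat, and the rat was a replicate block in an alternative. Their deviations from the means of their groups had correlations of -0.27, -0.24, 0.24 and 0.08 for rats 1 to 4. Controls share only numbers with them. Alternatives were upper quartile scaling, DESeq2 1.42.0, limma 3.58.1 on log2(FPKM + 1) or log2(FPKM + 0.1), no filter or a mean FPKM of at least 10, haemoglobin genes left out, all groups in one fit and leaving out each sample or rat. Total counts per sample were 65340027 to 85819418, and with 3 or 4 rats per group the spread between rats limits the precision. Promoters of RefSeq (GRCr8) were matched by symbol. The study's PCR, protein and cell measurements were not analysed here.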

Additional observations from a re-analysis of the deposited data

Results flagged for a closer look

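Arg1 in the Nampt+ sample of rat 3, at 3.72 FPKM, stood apart from the other 3 Nampt+ samples, which lay between 0.793 and 1.28 FPKM. Its gap to the nearest of them, divided by the range of the group, was 0.833, above Dixon's critical value for 4 samples. It was 1 of 18 groups checked, and chance alone flags about 1 in 20 such groups. The Nampt++ sample of the same rat was also the highest of its group, at 6.84 FPKM.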

How the results depend on the processing

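With 4 rats and 3 controls, the sign for Thbs1, Hmox1, Eng and Vegfa in CIA rats against controls turned with the method and with the animal left out, and the cause was not tested. Counts as low as 48 (Mrc1) and 89 (Arg1) per sample add counting error. In that comparison the log2 fold changes with limma at a pseudocount of 1 and of 0.1 were 0.31 and 0.35 for Thbs1, 0.23 and 0.27 for Hmox1, 0.16 and 0.36 for Eng and 0.12 and 0.19 for Vegfa, all of the opposite sign to edgeR. Leaving out each rat or control gave ranges of -1.17 to 1.66 for Thbs1, -0.97 to 1.44 for Hmox1, -0.73 to 1.42 for Eng, -0.0560 to 1.53 for Tgm2, -1.08 to 0.16 for Vegfa and -0.36 to 1.35 for Arg1, and 0 to 3 of the 6 genes called. The permutation differences ranged from -0.53 to 1.15 for Thbs1, -0.63 to 0.89 for Hmox1, -0.26 to 0.59 for Eng, 0.15 to 0.89 for Tgm2, -1.09 to 0.53 for Vegfa and -0.0925 to 0.56 for Arg1, and Vegfa with log2 CPM was at 0.0006. Over all genes, 72 were called between Nampt+ and Nampt++ (35 higher, 37 lower, and 45 higher and 32 lower with upper quartile scaling), 295 with no filter and 19 at a mean FPKM of at least 10. For Nampt++ against control, 77 were called, 306 with no filter, 25 at a mean of at least 10, 121 with DESeq2 and 145 and 140 with limma at pseudocounts of 1 and 0.1. For Nampt+ against control, 56 were called, 261 with no filter and 14 at a mean of at least 10. For CIA rats against controls, 69 were called (40 higher, 29 lower), 376 with no filter, 19 at a mean of at least 10 and 154 and 152 with limma (111 and 108 of them higher). Leaving out each sample gave ranges of 58 to 165, 53 to 462, 49 to 136 and 60 to 463 in the same order. The pairing by rat, as a replicate block, gave 56 genes between Nampt+ and Nampt++, and of the listed genes Thbs1 alone, at -1.31. The direction of the 6 listed genes in that contrast was the same under each alternative tried, with the exception of Arg1 without the Nampt++ sample of rat 3, at 0.07.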
